A study of Rattus norvegicus with 325 samples.

Results

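Cyclin-dependent kinase inhibitors are the genes described here, and they were taken by symbol from the count data of aged rat muscle. The 6 members Cdkn1a, Cdkn1b, Cdkn1c, Cdkn2a, Cdkn2b and Cdkn2c were found, each on 1 line, among 17315 distinct gene symbols. Cdkn2d, which encodes the remaining INK4 protein, was not analysed here. RNA was sequenced in 325 muscle libraries. All animals were male rats of the outbred Sprague Dawley strain, with no genetic change and no treatment in any group. The groups were the diaphragm, gastrocnemius, soleus and tibialis anterior at the ages of 6, 9 and 12 months and of 18, 21, 24 and 27 months, and the 28 groups held 9 to 13 libraries. The diaphragm is the muscle of breathing, the soleus is a slow postural muscle, and the other pair are mostly fast muscles of the lower leg. According to the study each library of a group came from its own animal, and the labels do not say which libraries of different muscles came from the same animal. All tissue of 1 age was taken on 1 day, so age and collection day cannot be told apart.

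Cells divide only when cyclins activate their partner kinases, and the inhibitors described here hold those kinases back. The Cip/Kip proteins p21 (Cdkn1a), p27 (Cdkn1b) and p57 (Cdkn1c) bind cyclin and kinase together, whereas the INK4 proteins p16 (a product of Cdkn2a), p15 (Cdkn2b) and p18 (Cdkn2c) bind Cdk4 and Cdk6 and keep them from the D cyclins. In muscle, p21 and p57 are known from the exit of myoblasts from the cell cycle, and p16 and p21 are widely used as markers of cellular senescence. Cdkn2a also encodes p19ARF, and counts per symbol do not separate its products.

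Depth and the identity of the tissue were checked first. Totals per library ran from 17.6 to 85.3 M counts (median 31.9 M). The muscle fibre markers were the most abundant of the marker lists in all 4 muscles, with summed levels at 6 months of 86570 to 115000 CPM (counts per M, scaled here to a common library size) in the diaphragm and 203600 to 229200 CPM in the tibialis anterior. Running numbers in the labels formed 3 series. The first held only the gastrocnemius, so a difference between the gastrocnemius and another muscle cannot be told apart from a difference between number series. The third held the 12 month libraries of the other muscles and 1 library each of 21 months, so in those muscles the 12 month values cannot be told apart from that series. The libraries are whole tissue, in which fewer cells of a type and less RNA per cell cannot be told apart.

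The stretch of 250 bases before the annotated start of 3 members is shown, because the first pair rose in all 4 muscles and the last did not pass the fold threshold in any. The sequences are from RefSeq on the build GRCr8, which is later than the build of the counts, and 5 of the 6 members matched an entry, Cdkn1c being without. The Cdkn1a stretch lies at chr20:7150682-7150931 on the plus strand, that of Cdkn2b at chr5:109134856-109135105 on the minus strand and that of Cdkn1b at chr4:169491254-169491503 on the plus strand. Each is written from 5′ to 3′, and capitals mark the E-box CANNTG, the motif bound by myogenic and other basic helix-loop-helix factors, in which N is any base.
Cdkn1a: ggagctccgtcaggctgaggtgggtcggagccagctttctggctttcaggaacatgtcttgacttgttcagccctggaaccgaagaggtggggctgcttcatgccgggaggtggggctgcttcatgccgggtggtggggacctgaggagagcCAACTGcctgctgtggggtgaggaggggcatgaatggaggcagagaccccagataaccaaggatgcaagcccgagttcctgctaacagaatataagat
Cdkn2b: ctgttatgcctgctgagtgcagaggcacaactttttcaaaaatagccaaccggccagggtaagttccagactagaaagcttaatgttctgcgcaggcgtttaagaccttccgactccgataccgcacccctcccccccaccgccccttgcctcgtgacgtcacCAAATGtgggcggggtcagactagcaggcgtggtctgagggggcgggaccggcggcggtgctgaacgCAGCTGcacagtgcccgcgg
Cdkn1b: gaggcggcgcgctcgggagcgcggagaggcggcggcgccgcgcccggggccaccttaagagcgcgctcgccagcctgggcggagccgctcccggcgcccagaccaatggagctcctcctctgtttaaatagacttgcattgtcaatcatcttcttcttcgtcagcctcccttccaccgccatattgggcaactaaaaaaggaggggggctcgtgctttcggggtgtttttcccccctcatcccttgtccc
Counted back from the start, with -1 the last base before it, an E-box began at -98 in Cdkn1a and at -87 and -20 in Cdkn2b, and the Cdkn1b stretch had 0. Of the members not shown, Cdkn2c, which was called at no age, had an E-box at -209. Cdkn2a, which had more reads in old gastrocnemius, had 0, so an E-box did not go with a rise across the members. The E-box reads alike on both strands, and 65.5% of 33469 promoter stretches of this length held at least 1. The GC box GGGCGG, searched on both strands, was found 3 times in Cdkn2b, 1 time in Cdkn1b and 0 times in Cdkn1a, against 30.5% of all stretches with at least 1. The letters TATAAA were in none of the 3 and in 12.9% of all stretches. Such matches are letters in a window and were not tested for binding.

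Cdkn1a rose most of the members tested in the fitted change, in each of the 4 muscles, and this change was largest in the tibialis anterior and smallest in the diaphragm. Cdkn2a was tested only in the gastrocnemius and is not ranked in the other muscles. The level of Cdkn1a is given as CPM, and values of different genes cannot be compared because transcript lengths were not used here. In the diaphragm its median was 44.5 CPM at 6 months, 46.9 at 9, 51.3 at 12, 62.4 at 18, 61.8 at 21, 72.3 at 24 and 118 at 27 months. In the gastrocnemius the medians at these ages were 35.6, 38.1, 66.2, 142, 247, 793 and 829.5 CPM. The 6 month libraries reached at most 57.1 CPM in the diaphragm and 55.8 CPM in the gastrocnemius. At 27 months the lowest and highest library were at 62.9 and 307 CPM in the diaphragm and at 292 and 1615 CPM in the gastrocnemius, so that both ages were without overlap in each of these muscles.

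In the soleus the Cdkn1a medians were 17.3, 24.9, 32.7, 39.2, 75.7, 119 and 500.4 CPM from 6 to 27 months. Those of the tibialis anterior were 19.02, 14.6, 15.1, 54.4, 85.1, 311 and 726 CPM. The ranges at 6 months were 12.4 to 24.9 CPM in the soleus and 6.64 to 30.7 CPM in the tibialis anterior, and at 27 months they were 80.4 to 932 CPM and 235 to 1199 CPM. From 18 months onwards every limb muscle library lay above all 6 month libraries of its muscle. The diaphragm reached that separation at 27 months, and 11 of its 12 libraries had done so at 24 months.

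**Figure D1:**
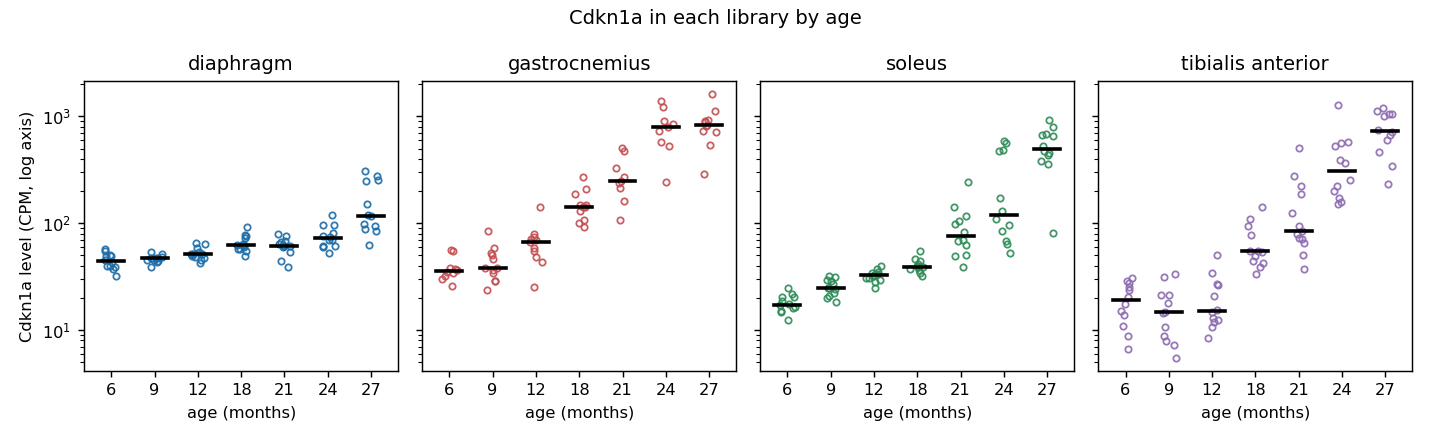
Level of Cdkn1a in CPM (log axis) in each library against age in months, with 1 panel for each muscle, where circles are libraries and bars are medians. The limb muscles climb from medians of 17.3 to 35.6 CPM at 6 months to 500.4 to 829.5 CPM at 27 months, and the diaphragm from 44.5 to 118 CPM.

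The tests compared each age with 6 months by limma-voom, a linear model of log2 CPM fitted over all genes, and a call required both a change over 1.5-fold and a p under 0.05 after Benjamini-Hochberg adjustment. Cdkn1a was 40.1-fold higher at 27 months in the tibialis anterior (log2 change 5.33, SE 0.35, adjusted p = 3.42e-23 by limma). The rise was 27.2-fold in the soleus (log2 change 4.76, SE 0.32, adjusted p = 8.66e-22) and 21.7-fold in the gastrocnemius (log2 change 4.44, SE 0.25, adjusted p = 1.51e-24). In the diaphragm it was 3.03-fold (log2 change 1.60, SE 0.15, adjusted p = 4.56e-14). Cdkn1a was first called at 18 months in the limb muscles, at log2 changes of 1.97 for the gastrocnemius, 1.18 for the soleus and 1.82 for the tibialis anterior. In the diaphragm it was first called at 24 months, at 0.76, after 0.53 at 18 months, which passed the p threshold (adjusted p = 0.00881) but not the fold threshold.

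The libraries of old animals also spread more widely in Cdkn1a. The SD of its log2 CPM went from 0.24 at 6 months to 0.78 at 27 months in the diaphragm, from 0.35 to 0.62 in the gastrocnemius and from 0.28 to 0.91 in the soleus. In the soleus it was widest at 24 months, at 1.33, where the lowest library had 52.6 CPM and the highest 585.5 CPM. In the tibialis anterior the SD was 0.72 at 6 months and 0.74 at 27 months, with the widest value of 1.07 at 21 months. These spreads were described and not tested.

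The muscles changed places in Cdkn1a between young and old animals. At 6 months the order of medians was diaphragm, gastrocnemius, tibialis anterior and soleus, in which the diaphragm and gastrocnemius did not pass the test against each other (log2 difference -0.26, SE 0.27, adjusted p = 0.386 by limma) and neither did the tibialis anterior and soleus (-0.04, SE 0.30, adjusted p = 0.918). Both of the lower muscles were called below both of the upper ones, by 1.07 to 1.37 on the log2 scale. At 27 months the order was gastrocnemius, tibialis anterior, soleus and diaphragm, and the diaphragm was called below each limb muscle, by 1.76 to 2.52. The gastrocnemius and tibialis anterior did not pass the test against each other (adjusted p = 0.587, log2 difference -0.20 with a 95% interval from -0.74 to 0.33), nor did the tibialis anterior and soleus (adjusted p = 0.0549, difference 0.55), while the soleus was called below the gastrocnemius (-0.75, SE 0.27, adjusted p = 0.0095).

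The difference between muscles in the change of Cdkn1a from 6 to 27 months was tested in a joint fit of all libraries. Against the diaphragm the change was larger by 2.78 (SE 0.38) for the gastrocnemius, by 3.10 (SE 0.38) for the soleus and by 3.69 (SE 0.38) for the tibialis anterior on the log2 scale, all called, with adjusted p-values from limma of 5.3e-11, 5.8e-13 and 2.09e-17. Among the limb muscles the differences were not called. They were 0.32 (95% interval -0.46 to 1.10) for the soleus against the gastrocnemius, 0.90 (0.11 to 1.69, adjusted p = 0.0824 by limma) for the tibialis anterior against the gastrocnemius and 0.59 (-0.19 to 1.37) for the tibialis anterior against the soleus.

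Cdkn1c, the gene of p57, rose mostly late in all 4 muscles. Its medians from 6 to 27 months were 9.03, 8.55, 7.74, 9.20, 7.78, 9.26 and 13.2 CPM in the diaphragm and 7.24, 6.94, 7.59, 9.87, 9.71, 16.9 and 22.0 CPM in the gastrocnemius. In the soleus they were 9.94, 9.93, 9.58, 10.9, 10.4, 16.2 and 35.3 CPM, and in the tibialis anterior 5.13, 4.82, 4.70, 6.38, 6.10, 7.72 and 20.8 CPM. The limb medians therefore stayed between 4.70 and 10.9 CPM up to 21 months. Within that range the gastrocnemius had moved, with 8 of 11 libraries at 18 months and 5 of 9 at 21 months above all of 6 months. Its log2 change at 18 months was 0.41 (95% interval 0.05 to 0.77) and not called (adjusted p = 0.13 by limma). The ranges of the limb muscles at 6 and 27 months did not overlap, with the highest 6 month library at 9.38 CPM and the lowest 27 month library at 13.9 CPM in the gastrocnemius, 12.4 and 14.8 CPM in the soleus, and 6.45 and 11.3 CPM in the tibialis anterior. In the diaphragm 10 of 12 libraries at 27 months lay above all of 6 months.

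The log2 change of Cdkn1c at 27 months was 1.90 (SE 0.19, adjusted p = 3.06e-15 by limma) in the tibialis anterior, 1.85 (SE 0.17) in the soleus and 1.69 (SE 0.17) in the gastrocnemius, which are rises of 3.74-fold, 3.61-fold and 3.22-fold. It was first called at 24 months in these muscles, at 0.76, 0.89 and 1.29. In the diaphragm the change was 0.59 (SE 0.09, adjusted p = 1.06e-07), 1.503-fold and so just past the fold threshold, and leaving out any of 8 single libraries put it under that threshold, with 0.54 as the lowest value. These 8 were the 6 month replicates 2, 3, 8 and 11 and the 27 month replicates 1, 5, 8 and 11, and the adjusted p stayed under 0.05 in each case. The change was larger than in the diaphragm by 1.04 (SE 0.23, adjusted p = 3.51e-05) in the gastrocnemius, 1.20 (SE 0.21, adjusted p = 3.99e-07) in the soleus and 1.27 (SE 0.23, adjusted p = 8.74e-07) in the tibialis anterior. Between limb muscles the differences were 0.06 to 0.22 and not called.

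The soleus had the highest median of Cdkn1c at 6 and at 27 months. At 6 months the order was soleus, diaphragm, gastrocnemius and tibialis anterior, where neighbouring muscles were not called against each other and the tibialis anterior was called below the soleus (-0.92, SE 0.18) and the diaphragm (-0.73, SE 0.19). At 27 months the soleus was called above the gastrocnemius (0.63, SE 0.13) and the diaphragm (1.40, SE 0.13), and the tibialis anterior was called below the soleus (-0.86, SE 0.13). The gastrocnemius and tibialis anterior differed by -0.23 (SE 0.14, adjusted p = 0.165) and the tibialis anterior and diaphragm by 0.54, under the fold threshold.

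Cdkn1b, the gene of p27, had nearly level medians. They ran from 46.3 to 54.7 CPM in the diaphragm, from 50.4 to 61.5 CPM in the gastrocnemius, from 41.1 to 50.4 CPM in the soleus and from 49.3 to 63.4 CPM in the tibialis anterior over the 7 ages. The lowest median of each muscle was that of 27 months. In the soleus the 27 month libraries, at 34.3 to 44.8 CPM, all lay below those of 6 months, at 45.4 to 55.5 CPM. In the tibialis anterior 11 of 12 did, in the diaphragm 6 of 12 and in the gastrocnemius 2 of 11.

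The change of Cdkn1b at 27 months was -0.19 (SE 0.06, adjusted p = 0.00335) in the diaphragm, -0.30 (SE 0.05, adjusted p = 1.2e-07) in the soleus and -0.33 (SE 0.04, adjusted p = 2.57e-10) in the tibialis anterior on the log2 scale. In the gastrocnemius it was -0.25 (SE 0.07, adjusted p = 0.00105), and with scaling by total counts alone this value was 0.03, a scaling that moved the median change of all genes there to 0.32 from 0.04. The same scaling moved the median change of all genes to 0.34 from 0.02 in the tibialis anterior and to 0.16 from 0.02 in the soleus. The size of the fall in those muscles thus also depends on the scaling. None of the Cdkn1b changes passed the fold threshold, and no difference between muscles in this change was called. In level, the tibialis anterior and gastrocnemius stood above the soleus by 0.27 to 0.33 in log2 CPM at both 6 and 27 months, all under the fold threshold, as was every other pair.

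**Figure D2:**
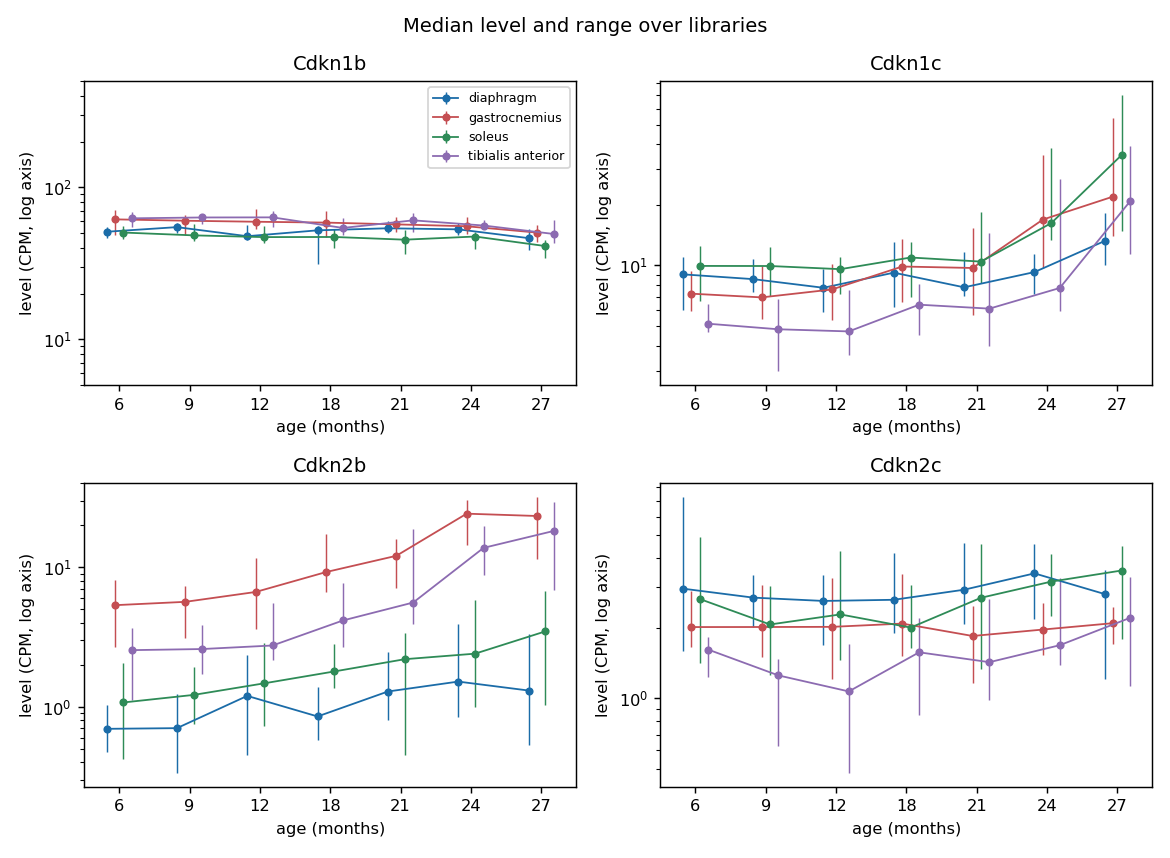
Median level in CPM (log axis) of Cdkn1b, Cdkn1c, Cdkn2b and Cdkn2c against age in months in the 4 muscles, with vertical lines from the lowest to the highest library. Cdkn1b stays near 41.1 to 63.4 CPM, Cdkn1c climbs most after 21 months in the limb muscles, and Cdkn2b is highest in the gastrocnemius at every age.

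Cdkn2b, the gene of p15, rose in all 4 muscles from levels that differed strongly between them. The medians from 6 to 27 months were 5.35, 5.66, 6.66, 9.24, 12.1, 24.2 and 23.3 CPM in the gastrocnemius and 2.55, 2.60, 2.75, 4.16, 5.59, 13.8 and 18.2 CPM in the tibialis anterior. They were 1.07, 1.22, 1.47, 1.79, 2.19, 2.40 and 3.48 CPM in the soleus and 0.696, 0.704, 1.20, 0.853, 1.29, 1.52 and 1.31 CPM in the diaphragm. The 6 and 27 month libraries did not overlap in the gastrocnemius (2.69 to 8.09 against 11.4 to 32.1 CPM) or in the tibialis anterior (1.12 to 3.69 against 6.85 to 29.5 CPM). In the soleus 11 of 12 libraries at 27 months lay above all of 6 months, and in the diaphragm 10 of 12.

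The log2 change of Cdkn2b at 27 months was 2.87 (SE 0.24, adjusted p = 3.3e-18 by limma) in the tibialis anterior, 2.23 (SE 0.20) in the gastrocnemius, 1.77 (SE 0.26) in the soleus and 1.11 (SE 0.25, adjusted p = 0.000141) in the diaphragm. In folds these were 7.32, 4.70, 3.41 and 2.16. It was first called at 18 months in the gastrocnemius (1.09) and tibialis anterior (0.87) and at 21 months in the soleus (0.86) and diaphragm (0.82). Its change was larger in the tibialis anterior than in the diaphragm (by 1.71, SE 0.43, adjusted p = 0.000315) and than in the soleus (by 1.11, SE 0.36, adjusted p = 0.00866), and larger in the gastrocnemius than in the diaphragm (by 1.07, SE 0.41, adjusted p = 0.0224). The gastrocnemius and tibialis anterior were not called apart in the change (0.65, 95% interval 0.12 to 1.18, adjusted p = 0.0607), nor were the soleus and diaphragm (0.61, -0.33 to 1.54).

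In level the order for Cdkn2b was gastrocnemius, tibialis anterior, soleus and diaphragm at all 7 ages, and the highest median was 7.69 times the lowest at 6 months and 17.8 times at 27 months. At 6 months each neighbour was called apart except the soleus and diaphragm (0.64, SE 0.40, adjusted p = 0.161). At 27 months each was called apart except the tibialis anterior and gastrocnemius (-0.32, SE 0.13, adjusted p = 0.0275, under the fold threshold).

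Cdkn2c, the gene of p18, was low in every muscle and was called at no age. Its medians over the 7 ages lay between 2.61 and 3.43 CPM in the diaphragm, 1.85 and 2.10 CPM in the gastrocnemius, 2.01 and 3.53 CPM in the soleus, and 1.07 and 2.21 CPM in the tibialis anterior. The libraries of 6 and 27 months overlapped in each muscle. At 27 months the log2 changes were 0.40 (SE 0.15, adjusted p = 0.0141) in the tibialis anterior, which passed the p threshold only, 0.30 (normal 95% interval 0.02 to 0.58) in the soleus, -0.25 (-0.55 to 0.05) in the diaphragm and -0.01 (-0.28 to 0.27) in the gastrocnemius. The diaphragm value was -0.07 without replicate 0 of 6 months, which stood at 7.31 CPM beside 1.60 to 3.92 CPM in the others, and -0.41 without replicate 10 of that age. With scaling by total counts the tibialis anterior value was 0.71 and called. The change in the tibialis anterior was larger than in the diaphragm by 0.62 (SE 0.22, adjusted p = 0.0135 by limma), and without that replicate 0 by 0.44, no longer called (adjusted p = 0.0787). Without replicate 10 the soleus was called apart from the diaphragm in the change, at 0.64 (adjusted p = 0.00293). At 6 months the order of medians was diaphragm, soleus, gastrocnemius and tibialis anterior, with the tibialis anterior called below the diaphragm (-0.91) and soleus (-0.78) and no other pair called. At 27 months the order was soleus, diaphragm, tibialis anterior and gastrocnemius, and the soleus was called above the gastrocnemius (0.69, SE 0.15) and the tibialis anterior below the soleus (-0.66, SE 0.15).

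Cdkn2a was at or near 0 reads in the diaphragm and soleus, and had more reads in old than in young libraries of the gastrocnemius and tibialis anterior. Because of its few reads it is given as raw reads per library. In the gastrocnemius 63 of 73 libraries held at least 1 read, with medians of 1, 1.5, 2, 9, 7, 10 and 19 reads from 6 to 27 months. The 10 libraries of 6 months held 0 to 3 reads, 4 of them 0, and the 11 of 27 months held 7 to 103, so these ages did not overlap, with 1 library holding 103 of the 320 reads at 27 months. In the tibialis anterior 35 of 85 libraries held a read, 1 of 12 at 6 months and 11 of 12 at 27 months, where the median was 5 and the highest library had 12.

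In the diaphragm 77 of 83 libraries were at 0, and the 10 reads found fell in 6 libraries of 21 to 27 months. In the soleus 79 of 84 libraries were at 0, with 14 reads in 5 libraries of 6, 12, 18 and 27 months. Both muscles are near the limit of what these depths can show, since a sum of 0 reads allows up to 3 and the 12 diaphragm libraries of 27 months together held 5. No fold is given for the diaphragm, which had 0 reads at 6 months.

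Only in the gastrocnemius did Cdkn2a pass the filter on low counts, and a gene that passes through the group where it is high had to differ, so its call is a description. The fitted log2 change at 27 months was 4.19 (SE 0.53, adjusted p = 3.36e-10 by limma), after 2.22 at 18, 2.54 at 21 and 3.41 at 24 months, all called. These values depend on the prior count of 0.5 that the fit adds. From the summed reads, 12 at 6 months and 320 at 27 months, the rate was 22.9 times as high (exact 95% interval 12.9 to 44.8, counting error only). In the tibialis anterior, 1 read at 6 months and 58 at 27 months gave a ratio of 59.9 with an exact interval from 10.3 to 2406. In the soleus the 4 and 2 reads gave 0.478 (0.0433 to 3.34).

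**Figure D3:**
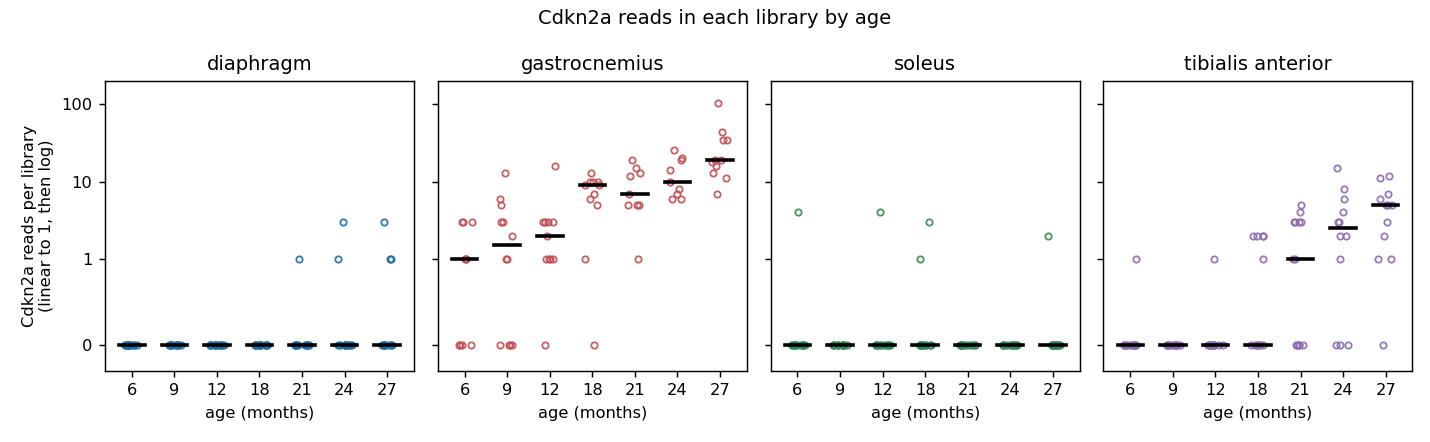
Raw Cdkn2a reads in each library against age in months, with 1 panel for each muscle, on an axis that is linear up to 1 read and logarithmic above it, where bars are medians. Reads climb in the gastrocnemius from a median of 1 at 6 months to 19 at 27 months and reach a median of 5 in the tibialis anterior, and most diaphragm and soleus libraries are at 0.

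Taking the members other than Cdkn2a together by age, the number called against 6 months grew while the share of all genes called grew too. In the diaphragm 0 of 5 tested members were called at 9, 12 and 18 months, 1 at 21, 2 at 24 and 3 at 27 months, beside 0.108%, 0.532%, 2.25%, 1.68%, 2.68% and 7.52% of all genes tested. In the gastrocnemius 0 of 5 were called at 9 and 12 months, 2 at 18 and 21 and 3 at 24 and 27 months, beside 0.143%, 0.885%, 4.32%, 5.81%, 18.8% and 22.8%. In the soleus the counts of 5 were 0, 0, 1, 2, 3 and 3, beside 0.123%, 0.353%, 2.84%, 2.61%, 6.51% and 15%. Those of the tibialis anterior were 0, 0, 2, 2, 3 and 3 of 5, beside 0.00851%, 0.196%, 5.45%, 6.47%, 14.5% and 27.6%.

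Without Cdkn2a, the 12 calls at 27 months, of 20 tests, were of higher levels. The share of all genes called higher at that age was 3.27% for the diaphragm, 15.1% for the gastrocnemius, 9.21% for the soleus and 17.2% for the tibialis anterior. At 9 months the unadjusted limma p was under 0.05 for 0 members in the diaphragm and gastrocnemius and for 1 each in the soleus and tibialis anterior, and at 12 months for 1, 2, 1 and 1 in the order diaphragm, gastrocnemius, soleus and tibialis anterior. At 18 months it was so for 1 in the diaphragm, which was Cdkn1a. No other tool was run at these ages.

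**Figure D4:**
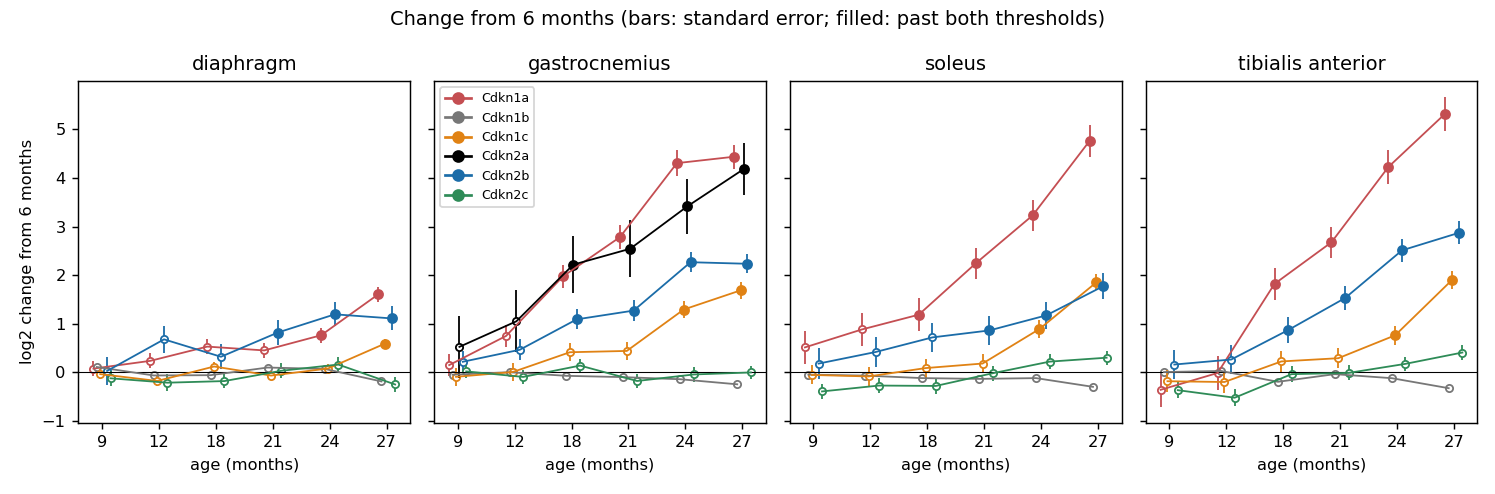
Fitted log2 change from 6 months of each tested member against age in months in the 4 muscles, with bars for the standard error, filled points where both thresholds were passed and open points elsewhere. Cdkn1a ends at 1.60 in the diaphragm and at 4.44 to 5.33 in the limb muscles, and Cdkn1b and Cdkn2c stay near 0.

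Steps between neighbouring ages show when the members moved. In the gastrocnemius the step from 12 to 18 months called 1 member, Cdkn1a (1.23, SE 0.23, with 0.742% of all genes called), and that from 21 to 24 months called 3, Cdkn1a (1.52), Cdkn1c (0.85) and Cdkn2b (1.00), beside 6.72% of all genes. From 24 to 27 months, with 0.624% of all genes called, no member was called there, with Cdkn1a at 0.13 (SE 0.27). The 2 members with an unadjusted limma p under 0.05 in that step were Cdkn1c, at 0.39 (SE 0.16, adjusted p = 0.127), and Cdkn2a, at 0.78 (SE 0.33, adjusted p = 0.155). From 18 to 21 months, with 0.253%, Cdkn1a changed by 0.81 (SE 0.25, adjusted p = 0.102) and none was called, with 2 at an unadjusted p under 0.05.

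In the soleus Cdkn1a was called at each step from 18 months on, at 1.06 (SE 0.29, 1.51% of all genes called), 0.99 (SE 0.27, 0.534%) and 1.53 (SE 0.27, 4.52%). Cdkn1c was called there in the last 2 steps (0.71 and 0.96) and Cdkn2b in the last (0.60, SE 0.20). The step from 12 to 18 months, with 1.74% of all genes called, moved Cdkn1a by 0.30 (SE 0.31) and called no member, with 0 at an unadjusted limma p under 0.05. In the tibialis anterior Cdkn1a was called at all 4 steps from 12 months on, at 1.84, 0.86, 1.55 and 1.10, in which 3.49%, 1.97%, 3.52% and 6.08% of all genes were called. The step from 12 to 18 months, here as in the soleus and diaphragm, cannot be told apart from the third number series, which holds the 12 month libraries. In the tibialis anterior Cdkn2b was called from 18 to 21 (0.66) and from 21 to 24 months (0.98), and Cdkn1c from 24 to 27 months (1.14, SE 0.16).

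In the diaphragm the only call was Cdkn1a from 24 to 27 months (0.84, SE 0.15, adjusted p = 5.54e-06 by limma), a step with 4.39% of all genes called. The earlier steps, with 0.856%, 0.54% and 0% of all genes called, called no member, and 1, 2 and 1 members had an unadjusted limma p under 0.05. Cdkn1c in the last diaphragm step changed by 0.51 (SE 0.09, adjusted p = 2.93e-06), under the fold threshold.

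The shape over all 7 ages was described by comparing a flat, a straight and a logistic curve of log2 CPM on age by the Bayesian information criterion (BIC, a penalised measure of fit), with a trend taken where the BIC lay over 6 below that of the flat curve. Cdkn1a and Cdkn1c were late logistic and rising in all 4 muscles, with inflections after 21 months, at 22.0 to 27.0 months for Cdkn1a and 23.75 to 25.5 months for Cdkn1c. The search ended at 27 months, the last age, so the value of 27.0 for Cdkn1a in the diaphragm does not locate a turn. For Cdkn1a in the gastrocnemius the BIC lay 152.5 below the flat curve for the logistic and 148.7 for the straight curve. Cdkn1a was called in the limb muscles from 18 months, before these inflections. Cdkn2b rose in a straight line in the diaphragm, gastrocnemius and soleus and by a late logistic curve in the tibialis anterior, with an inflection at 21.25 months. Cdkn2a rose in a straight line in the gastrocnemius. Cdkn1b fell in a straight line in the limb muscles, with slopes of -0.12 to -0.15 on the log2 scale per 12 months. In the diaphragm it fell late, with an inflection at 27.0 months, also the end of the search. Cdkn2c had no trend in the diaphragm and gastrocnemius, a late rise in the soleus and a straight rise of 0.34 per 12 months in the tibialis anterior. Of the 5 members other than Cdkn2a, 4 in the diaphragm, 4 in the gastrocnemius and 5 each in the soleus and tibialis anterior had a trend, beside 29.6%, 55.1%, 40.2% and 64.9% of all genes tested.

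Between muscles, the counts of the 5 members other than Cdkn2a that were called are set beside those of all genes. At 6 months 1 was called between the gastrocnemius and diaphragm (37.3% of all genes), 1 between the soleus and diaphragm (23.9%), 4 between the tibialis anterior and diaphragm (35.1%), 2 between the soleus and gastrocnemius (45.4%), 2 between the tibialis anterior and gastrocnemius (17.3%) and 3 between the tibialis anterior and soleus (42.9%). For 27 months, in the same order of pairs, 3 (32.3%), 3 (27.9%), 2 (27.4%), 4 (34%), 0 (10.4%) and 3 (31.7%) were called. In the change from 6 to 27 months they were 3 (21.6%), 2 (11.9%), 4 (20.3%), 0 (14.5%), 0 (7.32%) and 1 (15.8%). The pairs with 0 calls had 1 member at an unadjusted limma p under 0.05 at 27 months, and in the change 0 for the soleus against the gastrocnemius and 2 for the tibialis anterior against the gastrocnemius, where edgeR also called 0 in each. No other tool was run for the levels at 27 months.

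The members varied together to different degrees across libraries, which share their muscle and age. Over the 325 libraries, after the mean of each muscle was removed, Cdkn1a had r = 0.848 with Cdkn1c and 0.854 with Cdkn2b, and r = -0.535 with Cdkn1b. After the mean of each muscle and age was removed these were 0.617, 0.558 and -0.155. Within ages, Cdkn1a and Cdkn1c had r = 0.748 in the tibialis anterior, 0.693 for the gastrocnemius, 0.564 for the soleus and 0.095 for the diaphragm, and Cdkn1a and Cdkn2b had r = 0.831, 0.546, 0.538 and 0.240. In the limb muscles, libraries of the same age with more Cdkn1a thus also had more Cdkn1c and Cdkn2b, and in the diaphragm this was weaker or near 0. These values are descriptions of the libraries, and no test was made of them.

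The genes whose pattern was most like a member were taken among 11517 genes tested in all 4 muscles, by the same correlation with muscle means removed. For Cdkn1a they were Ltbp1 (0.954), Kcnn3 (0.952) and Runx1 (0.950), of which Ltbp1 encodes a binding protein of latent TGF-beta and Kcnn3 a calcium-activated potassium channel. For Cdkn2b they were Kcnn3 (0.861), Runx1 (0.857) and Gadd45a (0.856). For Cdkn1c they were Erbb2 (0.875), a receptor tyrosine kinase, Aif1l (0.865) and Fst (0.864), the gene of the activin and myostatin binder follistatin. For Cdkn1b they were Acadsb (0.738), Morf4l1 (0.737) and Klhl24 (0.724). The likeness was lower for Cdkn2a, led by B2m (0.687), Eef1a1 (0.668) and Bex1 (0.666), and for Cdkn2c, led by Asns (0.498), Prcp (0.488) and Scpep1 (0.484). Cdkn2a was at 0 reads in 77 of 83 diaphragm, 79 of 84 soleus and 50 of 85 tibialis anterior libraries. In those its log2 CPM is set by the prior count and the library size, so its r values cannot be set beside those of the other members. With age means also removed, the values of Ltbp1, Kcnn3 and Runx1 against Cdkn1a were 0.819, 0.750 and 0.804, and those of B2m, Eef1a1 and Bex1 against Cdkn2a were 0.265, 0.288 and 0.278.

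The kinases and cyclins that the inhibitors bind were read at 27 months, when 7.52%, 22.8%, 27.6% and 15% of all genes were called for the diaphragm, gastrocnemius, tibialis anterior and soleus. Of the G1 cyclins and kinases, 7 of 8 were tested in the diaphragm, gastrocnemius and tibialis anterior and 8 in the soleus, and 0, 2, 0 and 0 were called higher and 1, 0, 1 and 0 lower in the order diaphragm, gastrocnemius, tibialis anterior and soleus. By edgeR and by DESeq2 1 was called higher in the gastrocnemius, and the other counts were the same. The largest call among them was Ccnd2, the gene of cyclin D2, in the tibialis anterior, at a log2 change of -0.83 (SE 0.10). Of 8 tested pocket protein and E2F genes, 0, 2, 1 and 3 were called higher and 0, 1, 0 and 1 lower for the diaphragm, gastrocnemius, soleus and tibialis anterior. E2f1, which encodes a factor that switches on S phase genes, had log2 changes of 0.13, 0.58, 1.22 and 0.72, of which those of the soleus and tibialis anterior were called, although only 8 and 10 of 12 libraries of 6 months reached the level of the low-count filter there.

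Genes of S phase and mitosis, which active kinases drive, were called higher in 1 of 20 for the diaphragm, 11 of 19 for the gastrocnemius, 8 of 20 for the soleus and 14 of 19 for the tibialis anterior, and 1 was called lower, in the diaphragm. By edgeR and by DESeq2 the counts higher were 0, 11, 5 and 14. Of the called genes, 1 of 2 in the diaphragm, 5 of 11 in the gastrocnemius, 6 of 8 in the soleus and 10 of 14 in the tibialis anterior passed the filter on low counts only through older libraries, so that their calls are descriptions. The median changes of all tested genes of the list were 0.14, 0.80, 0.53 and 1.12, beside 0.003, 0.04, 0.02 and 0.02 for all genes tested. The share of all genes called higher was 3.27%, 15.1%, 9.21% and 17.2% in the same order. Mki67, the gene of the proliferation marker Ki-67, rose in the gastrocnemius (1.24, SE 0.22) and tibialis anterior (1.23, SE 0.21), and had 0.57 (SE 0.21) in the soleus and -0.43 (SE 0.25) in the diaphragm, neither called by limma, while edgeR and DESeq2 called the soleus (both 0.68). Top2a, the gene of a DNA topoisomerase, was called in the limb muscles at 1.41, 0.65 and 1.61 in the order gastrocnemius, soleus and tibialis anterior. In the tibialis anterior 11 of 12 libraries of 6 months reached the filter level for Top2a, too few to pass alone, so that call is a description. Bub1b, of the spindle checkpoint, was called in the 3 limb muscles at 1.12, 1.03 and 1.31, the soleus value by limma alone (adjusted p = 0.0729 for edgeR, 0.0644 for DESeq2), and 6 month libraries alone did not reach the filter in any of the 3. Mcm5, of the replicative helicase, was called at 0.80 to 1.43 in the limb muscles. Of 12 libraries of 6 months, 10 reached the filter level for Mcm5 in the soleus and diaphragm and 5 in the tibialis anterior. These were too few to pass alone, so the Mcm5 calls in those muscles are descriptions. The diaphragm value of Mcm5, 0.69, was called by limma (adjusted p = 0.0126) and not by edgeR (0.50, adjusted p = 0.0761) or DESeq2 (0.52, adjusted p = 0.0645).

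Genes of DNA damage and growth arrest were compared next, because Cdkn1a belongs to the same response. Of the list, 2 of 21 tested genes were called higher for the diaphragm, 7 of 20 for the gastrocnemius, 4 of 20 for the soleus and 6 of 20 for the tibialis anterior, where 2 were lower. The share of all genes called higher was 3.27%, 15.1%, 9.21% and 17.2% in that order. Gadd45a, a stress gene of growth arrest and DNA repair that is also on the denervation list, rose by 1.25, 4.23, 2.82 and 4.49 on the log2 scale in the order diaphragm, gastrocnemius, soleus and tibialis anterior. Phlda3, which restrains the kinase Akt, rose by 0.69, 1.96, 1.80 and 1.98. Bbc3, which encodes the apoptotic protein PUMA, rose in the limb muscles by 1.59, 1.68 and 1.47, and had -0.04 (SE 0.25) in the diaphragm. Of its 6 month libraries 6 of 12 in the soleus and 10 of 12 in the tibialis anterior reached the filter level.

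Of other genes written down as regulators of the inhibitors, 1 of 19 was called higher in the diaphragm and 8, 7 and 7 of 20 in the gastrocnemius, soleus and tibialis anterior, with 1 lower in the gastrocnemius and 3 in the tibialis anterior. By edgeR and by DESeq2 the counts higher were 2, 7, 7 and 7. The share of all genes called higher by limma was 3.27%, 15.1%, 9.21% and 17.2% in that order. Myog, the gene of the myogenic factor myogenin, rose in all 4 muscles, by 1.05 for the diaphragm, 2.56 for the gastrocnemius, 0.79 for the soleus and 3.76 for the tibialis anterior. Myod1, whose product can switch on Cdkn1a in differentiating myoblasts, was called in the limb muscles at 1.45, 2.88 and 1.15 and had 0.43 (SE 0.13, under the fold threshold) in the diaphragm. Tp73, the gene of the transcription factor p73, went from medians of 0.162, 0.0126 and 0.120 CPM at 6 months to 3.83, 2.60 and 4.93 CPM at 27 months in the limb muscles. At most 1 of its 6 month libraries in a muscle reached the filter level, so it passed through the old groups and its calls are descriptions.

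Genes known to respond to loss of the nerve were called in the same comparisons. All 9 tested genes of that list were called higher in each of the 4 muscles, with median log2 changes of 1.25 for the diaphragm, 3.34 for the gastrocnemius, 2.25 for the soleus and 4.49 for the tibialis anterior. The share of all genes called higher was 3.27%, 15.1%, 9.21% and 17.2% in that order. Chrna1, a subunit of the acetylcholine receptor, changed by 1.29, 4.82, 2.55 and 5.35 in that order. Chrng, the fetal receptor subunit that returns after loss of nerve contact, went from a median of 0.440 to 6.69 CPM in the diaphragm and from 0.421 to 21.0, 2.63 to 30.6 and 0.251 to 34.2 CPM in the gastrocnemius, soleus and tibialis anterior. In all but the soleus Chrng passed the filter through older libraries, and its calls there are descriptions. Runx1, a transcription factor of denervated fibres, changed by 1.77, 3.70, 2.84 and 5.10.

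Secreted factors of the senescence-associated list were called higher in 7 of 17, 6 of 19 and 8 of 19 tested genes for the gastrocnemius, soleus and tibialis anterior, and lower in 2, 2 and 3. The share of all genes called higher was 15.1%, 9.21% and 17.2% in that order, and 3.27% in the diaphragm. For the list, edgeR and DESeq2 each called 7 higher in the soleus. In the diaphragm 0 of 19 were called by limma-voom, edgeR or DESeq2, and 8 had an unadjusted p under 0.05 in limma-voom. Il1b, the gene of an inflammatory interleukin, was called in the limb muscles at 1.05, 0.94 and 1.75 and had 0.46 (SE 0.20) in the diaphragm. Igfbp5, of an insulin-like growth factor binding protein, was called in the limb muscles at 1.04 to 1.64 and had -0.07 in the diaphragm, and the chemokine gene Ccl7 was called in the limb muscles at 1.22 to 2.06. Il1b and Ccl7 reached the filter level in at most 7 of the 6 month libraries of a limb muscle, and 4 of 9 called genes of the list in the gastrocnemius, 4 of 8 in the soleus and 4 of 11 in the tibialis anterior passed the filter only through older libraries. In the diaphragm Il1b reached the filter level in 12 of 12 libraries of 6 months. The 4 nuclear markers of the senescence list, Lmnb1, Hmgb1, Hmgb2 and H2afx, had median changes of -0.16 to 0.03.

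The neighbours of the members on the chromosome were also read. Igf2 and H19, the growth factor gene and the noncoding RNA gene of the imprinted cluster that holds Cdkn1c, were the 2 genes of 7 tested that were called in each muscle, both higher. The share of all genes called higher was 3.27% for the diaphragm, 15.1% for the gastrocnemius, 9.21% for the soleus and 17.2% for the tibialis anterior. Igf2 changed by 1.58, 3.30, 1.72 and 2.86 and H19 by 1.26, 1.45, 2.34 and 2.49 for the diaphragm, gastrocnemius, soleus and tibialis anterior. Beside Cdkn2a and Cdkn2b, Dmrta1 was called lower in the diaphragm (-0.96, SE 0.21) and tibialis anterior (-0.90, SE 0.17), and had -0.58 and -0.15 in the gastrocnemius and soleus, of which edgeR (-0.60) and DESeq2 (-0.61) called the gastrocnemius value.

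**Figure D5:**
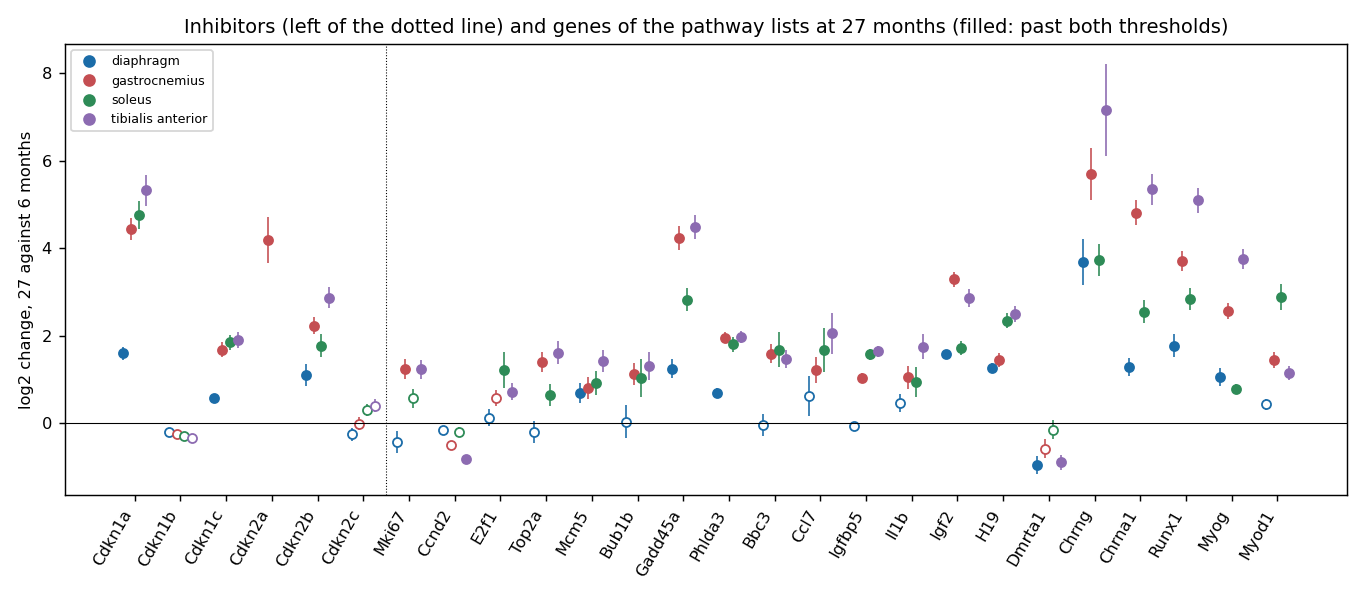
Log2 change at 27 against 6 months, with bars for the standard error, of the 6 inhibitors (left of the dotted line) and of the named genes of the pathway lists in the 4 muscles, with filled points where both thresholds were passed. Chrna1, Runx1 and Gadd45a reach 4.49 to 5.35 in the tibialis anterior, near Cdkn1a at 5.33.

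Markers of other cells were read in the same comparisons. The share of all genes called higher was 3.27% for the diaphragm, 15.1% for the gastrocnemius, 9.21% for the soleus and 17.2% for the tibialis anterior. The macrophage list was called higher in 7 of 7 genes in the gastrocnemius and tibialis anterior, 1 of 7 in the soleus and 0 of 7 in the diaphragm, and its summed level lay at 89.0 to 158 CPM at 6 months against 171 to 301 CPM at 27 months in the gastrocnemius, and at 41.7 to 65.1 against 89.9 to 187 CPM in the tibialis anterior. In the soleus these ranges were 134 to 213 against 212 to 288 CPM and in the diaphragm 109 to 183 against 157 to 233 CPM. The adipocyte list was called higher in 4 of 4 genes in each limb muscle and 0 of 4 in the diaphragm, with sums in the soleus of 31.7 to 170 CPM at 6 months and 146 to 418 CPM at 27 months. The T cell list had 2 of 5, 2 of 3, 2 of 3 and 3 of 3 tested genes higher for the diaphragm, gastrocnemius, soleus and tibialis anterior, at summed levels of at most 31.7 CPM. Of these genes, Cd3e and Cd3g in the diaphragm and Cd2 and Cd8a in each limb muscle passed the low-count filter only through older libraries. The same holds for Lep of the adipocyte list in the tibialis anterior, with 7 of 12 libraries of 6 months at the filter level. Any calls of these genes are descriptions.

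Satellite cell markers, of the muscle stem cells, had 0, 1, 2 and 1 of 4 genes higher and 0, 0, 0 and 1 lower in the same order, with sums of 23.2 to 38.3 CPM at 6 and 23.7 to 39.9 CPM at 27 months in the gastrocnemius and of 26.3 to 34.5 and 20.2 to 64.8 CPM in the soleus. The fibroblast list was lower in 4, 2, 2 and 0 of 6 genes, the endothelial list in 0, 1, 1 and 1 of 5. In that order, 7.52%, 22.8%, 15% and 27.6% of all genes were called in either direction. A count of 1 gene of such a list in a limb muscle is near that share. Muscle fibre markers were lower in 2 of 6 in the gastrocnemius and 3 of 6 in the tibialis anterior, and higher in 1 of 6 in the diaphragm and 2 of 6 in the soleus. Their sum at 27 months was 99450 to 184000 CPM in the gastrocnemius and 86120 to 199300 CPM in the tibialis anterior. Smooth muscle markers were higher in 2 of 4 in the gastrocnemius and tibialis anterior. Schwann cell markers were higher in 0, 1, 1 and 2 of 5 and lower in 0, 1, 0 and 0, and of 3 red cell markers 0 were called. No marker list had a gene at 0 in all libraries of either age. The part of these cells in the levels of the inhibitors was not tested.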

How the data were processed

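RNA of 325 rat muscle libraries was measured. The authors kept tissue in RNAlater, removed ribosomal RNA, made strand-specific libraries and deposited raw counts per gene, made with the ArrayStudio pipeline on the rat B6.0 genome and an in-house gene model based on RefSeq. Versions are not given in the sources used here. The deposited counts were used without change, at 17.6 to 85.3 M per library. Genes with enough counts (edgeR filterByExpr, minimum count 10, minimum total 15) were scaled by TMM and tested with limma-voom (R 4.3.3, limma 3.58.1, edgeR 4.0.16), within each muscle over all ages and, between muscles, in a joint fit of 12784 genes. Calls needed a Benjamini-Hochberg adjusted p under 0.05 over all genes tested and a change over 1.5-fold, and tests were two-sided. P-values measure the spread between libraries. Levels in CPM use the joint TMM sizes, and log2 values add a prior count of 0.5. Intervals on Cdkn2a reads are exact (scipy 1.17.1) and cover counting error only.

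The members, lists and tests were chosen with earlier results of these data known. Named genes were all members, Mki67, and of each list up to 3 genes called in at least 3 muscles in 1 direction by mean absolute change, or else the largest called change. Some listed items are not reported here and were left out of the list counts, and the rule was applied to the rest. For each member the 3 genes of highest correlation were also named. Alternatives were Bonferroni adjustment, a 2-fold threshold, other scalings, no filter, edgeR, DESeq2 1.42.0, sample weights, the leading axis of the libraries, 6 and 27 months alone, a replicate block, leaving out the third number series and each single library. The scripts were tested on simulated data.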

Additional observations from a re-analysis of the deposited data

Results flagged for a closer look

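The change of a member from 6 to 27 months differed between muscles in 10 of 30 tests of the difference itself by limma over the 5 members other than Cdkn2a. For Cdkn1a the log2 change exceeded that of the diaphragm by 2.78 for the gastrocnemius, 3.10 for the soleus and 3.69 for the tibialis anterior. For Cdkn1c these differences were 1.04, 1.20 and 1.27. For Cdkn2b the change exceeded that of the diaphragm by 1.07 in the gastrocnemius and by 1.71 in the tibialis anterior, and the tibialis anterior exceeded the soleus by 1.11. For Cdkn2c the tibialis anterior exceeded the diaphragm by 0.62, and by 0.44, not called (adjusted p = 0.0787 by limma), without the diaphragm replicate 0 of 6 months. Differences with the gastrocnemius cannot be told apart from its own series of running numbers.

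A single library stood apart within its group. In the gastrocnemius at 21 months, replicate 5 had the lowest Cdkn2c, at a log2 CPM of 0.22 beside 0.80 to 1.32 in the others, a gap of 0.529 of the range of the group. The 6 members in 3 groups of 10 or fewer libraries made 18 sets of values, each looked at on both sides, and 1 library stood apart. Chance alone marks about 1 in 20 sets, so about 1 here.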

How the results depend on the processing

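Of the changes from 6 to 27 months, 241 values under the alternatives kept direction and call. With a 2-fold threshold the diaphragm value of Cdkn1c, 0.59, was no longer called, nor was that of Cdkn2b, 1.11, under Bonferroni adjustment (adjusted p = 0.285 from limma). Leaving out single libraries, in 93 refits, moved the diaphragm count of members called between 2 and 3, Cdkn1c there between 0.54 and 0.62, and Cdkn2c between -0.41 and -0.07 in the diaphragm and between -0.037 and 0.041 in the gastrocnemius. In the joint fit, 2 alternatives chosen after seeing the data left out a 6 month diaphragm library, and moved the Cdkn2c difference of the tibialis anterior from the diaphragm to 0.44 (without replicate 0) or 0.76 (without replicate 10). Under Bonferroni adjustment the members whose change differed fell from 3 to 1 for the gastrocnemius against the diaphragm, from 4 to 2 for the tibialis anterior against the diaphragm and from 1 to 0 for the tibialis anterior against the soleus. Total-count scaling moved the median change of all genes to 0.04, 0.32, 0.16 and 0.34 for the diaphragm, gastrocnemius, soleus and tibialis anterior. It turned the gastrocnemius values of Cdkn1b to 0.032 and of Cdkn2c to 0.26, and the Cdkn1b differences in change to 0.18 for the gastrocnemius and 0.14 for the tibialis anterior against the diaphragm and 0.15 for the tibialis anterior against the soleus. It also brought Cdkn2c past the threshold in the tibialis anterior, at 0.71, and in the soleus against the diaphragm, at 0.64. With no filter on low counts, Cdkn2a was called in the tibialis anterior (adjusted p = 1.118e-08 by limma) and not in the diaphragm (0.5408) or soleus (0.7943). At a BIC cut-off of 10, Cdkn1b in the diaphragm (6.759) and Cdkn2c in the soleus (9.465) had no trend, and without the third number series Cdkn2b in the tibialis anterior turned at a mid age and Cdkn2c in the soleus rose in a straight line (6.452). The cause of these shifts was not tested.

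Same-numbered libraries were not taken as paired, since the labels name no shared animal and not every pair deviated together. Between ages of a muscle their median r was 0.002 to 0.025, and between muscles of the same age 0.03 to 0.20, and a library matched its own number best in another muscle in 332 of 936 cases, where equal chances would give 80.8, a hint from the data that some numbers are shared between muscles, which the labels do not state. A block of replicate number within each muscle changed no call, with Cdkn1a at 1.61, 4.42, 4.78 and 5.36 for the diaphragm, gastrocnemius, soleus and tibialis anterior. That block joins libraries of different ages, so it cannot account for animals shared between muscles. In the joint fit, a block of age and number changed no call of a difference in change for the members other than Cdkn2a. The p-values given between muscles treat the libraries as independent. Depth limits Cdkn2a most, since most diaphragm and soleus libraries held 0 reads.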
